A study of Mus musculus with 5 samples.

Results

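Matrix metalloproteinases and their tissue inhibitors, the TIMPs, were examined in the hearts of diabetic Akita mice and wild type mice. The set consisted of Mmp2, Mmp3, Mmp9, Mmp14, Mmp15, Timp1, Timp2, Timp3 and Timp4, 9 genes in all. Each was represented by the probe set carrying its symbol alone, with the highest mean over the 5 arrays if there were several. Of the 9 genes, 8 had such a probe set, among 22180 genes with one, and each of the 8 had 1 probe set only. No probe set in the annotation used carried the symbol Mmp15, which was not analysed here. The 8 genes comprised 4 proteases and 4 inhibitors.

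Total RNA of fresh heart tissue from male mice aged 12 weeks was hybridised to 5 whole-transcript Affymetrix arrays, 3 of wild type hearts (replicates 3, 4 and 5) and 2 of Akita hearts (replicates 1 and 3). All mice were of the C57BL/6 background and no treatment is named. Akita mice carry 1 mutant copy of the insulin gene Ins2 in the germ line (Ins2+/-) and become diabetic through loss of insulin secretion. The allele is not confined to a tissue. The labels give neither the chamber taken nor whether each sample was a separate animal, so p-values reflect only how far these samples spread, part of which may be technical.

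Matrix metalloproteinases are zinc-dependent enzymes that are made as inactive precursors and cut collagens, other matrix proteins and cell surface proteins. Mmp2 and Mmp9 encode the gelatinases, Mmp3 encodes stromelysin-1, and Mmp14 and Mmp15 encode enzymes anchored in the cell membrane. The 4 TIMPs bind active metalloproteinases and block them, and in the heart the balance of both families governs how the collagen network is turned over. TIMP2 also takes part in activation, since it links the MMP-2 precursor to MMP14 at the cell surface. Timp4 is known for its high expression in heart muscle. Transcript levels do not measure enzyme activity, which depends on cleavage of the precursor and on inhibitor binding.

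RefSeq promoter windows of build GRCm38.p6, from 250 bases before to 50 bases after each gene's start, were at hand for 7 of the 9 genes. Those of Mmp2 and Mmp9 were not among them. Each window was searched on both strands for 4 motifs: the AP-1 site TGANTCA, its variant TGAGTAA, the TATA box TATAAA and the GC box GGGCGG. The 250 bases before the start are printed for Mmp3, the member with AP-1 and TATA matches, for Mmp14, whose signal differed most between the Akita hearts, and for Timp4, whose group difference was the largest in size. They lie at chr9:7445572-7445821 (plus strand), chr14:54431348-54431597 (plus strand) and chr6:115252206-115252455 (minus strand), and capitals mark motif matches.
Mmp3: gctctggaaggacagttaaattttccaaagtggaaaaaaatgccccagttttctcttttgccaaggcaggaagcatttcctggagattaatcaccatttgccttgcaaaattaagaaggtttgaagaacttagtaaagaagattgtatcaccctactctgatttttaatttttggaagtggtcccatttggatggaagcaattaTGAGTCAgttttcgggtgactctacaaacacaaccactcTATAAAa
Mmp14: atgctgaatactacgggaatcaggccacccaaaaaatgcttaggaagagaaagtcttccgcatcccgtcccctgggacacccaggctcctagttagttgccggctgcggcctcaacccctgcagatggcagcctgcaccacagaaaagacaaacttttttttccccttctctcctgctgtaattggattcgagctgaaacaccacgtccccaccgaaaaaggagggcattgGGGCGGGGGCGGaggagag
Timp4: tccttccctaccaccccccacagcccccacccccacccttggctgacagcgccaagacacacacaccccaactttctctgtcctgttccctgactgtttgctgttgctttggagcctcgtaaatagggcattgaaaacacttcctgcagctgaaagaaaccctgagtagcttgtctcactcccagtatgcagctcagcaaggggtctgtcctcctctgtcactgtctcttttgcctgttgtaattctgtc

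The Mmp3 window held TGAGTCA 46 bases and TATAAA 7 bases before the start, counted to the first base of the match. In the Mmp14 window were 2 adjacent GC boxes, at 19 and 13 bases before the start. No letters of any of the 4 motifs were found in the Timp4 window. The Timp1 window held TGAGTAA from the 27th base after the start and a GC box on the opposite strand. GC boxes were found in 5 of the 7 windows, and in 35.7% of the 32851 windows of the table. TGANTCA was found in 1 of the 7 and in 7.81% of all windows, TGAGTAA in 1 and in 2.68%, and TATAAA in 1 and in 13.6%. A match is a description of letters and not evidence of a bound factor.

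Both Akita arrays stood apart from wild type in markers of the atrium, in opposite directions for some of them. Of 7 atrial myocyte markers, 7 lay above the wild type mean in Akita replicate 3, with a median of 2.36 on the log2 scale. In Akita replicate 1, 2 lay above it, with a median of -0.18. Bmp10, a growth factor of atrial muscle, stood at 4.63, 4.64 and 5.18 in wild type and at 5.71 and 10.83 in Akita replicates 1 and 3. Sln, a regulator of the calcium pump in atrial muscle, stood at 7.74, 8.13 and 7.95 in wild type, at 6.71 in Akita replicate 1 and at 10.85 in replicate 3. Myl7, an atrial myosin light chain, stood at 7.83, 8.10 and 8.08, and at 6.55 and 10.36. In Sln and Myl7 replicate 1 was under and replicate 3 over every wild type array. Kcnj3 had the same order with a smaller gap, at 8.76, 8.63 and 8.55 in wild type and 8.47 and 9.06 in Akita. Nppa, the brightest marker, stood at 11.98, 11.86 and 11.79 in wild type and at 12.21 and 13.39 in Akita. Both Akita arrays lay above every wild type array in Nppa, as in Bmp10. Summed over the list, the log2 signal was 12.24 to 12.35 in wild type, 12.46 in Akita replicate 1 and 14.06 in replicate 3, a sum that the brightest markers dominate. Cardiomyocyte markers were high on every array, with Myh6 at 12.83 to 12.95 and Tnnt2 at 13.13 to 13.23, as the label of heart tissue requires. Median log2 signals per array lay between 4.53 and 4.71, and precision is limited throughout by how few arrays there are.

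The 2 groups were compared to ask whether transcripts of these proteases and inhibitors differ in the diabetic heart. None of them passed the test. Of the 8 genes, 7 lay above the filter on dim signal (log2 4.06) and were tested by limma, and 0 of the 7 had an adjusted p under 0.05, where 0.328% of the 15528 genes tested did. At an unadjusted p under 0.05 the count was 1 of 7, Timp4, which lay lower, against 13.6% of all genes (4.13% higher and 9.49% lower). In 0 of the 7 did both Akita arrays lie on the same side of all wild type arrays, against 29.7% of all genes. The 2 largest differences were those of Mmp2, which lay higher in the Akita mean, and Timp4, which lay lower, and both were larger in Akita replicate 3 than in replicate 1.

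**Figure D1:**
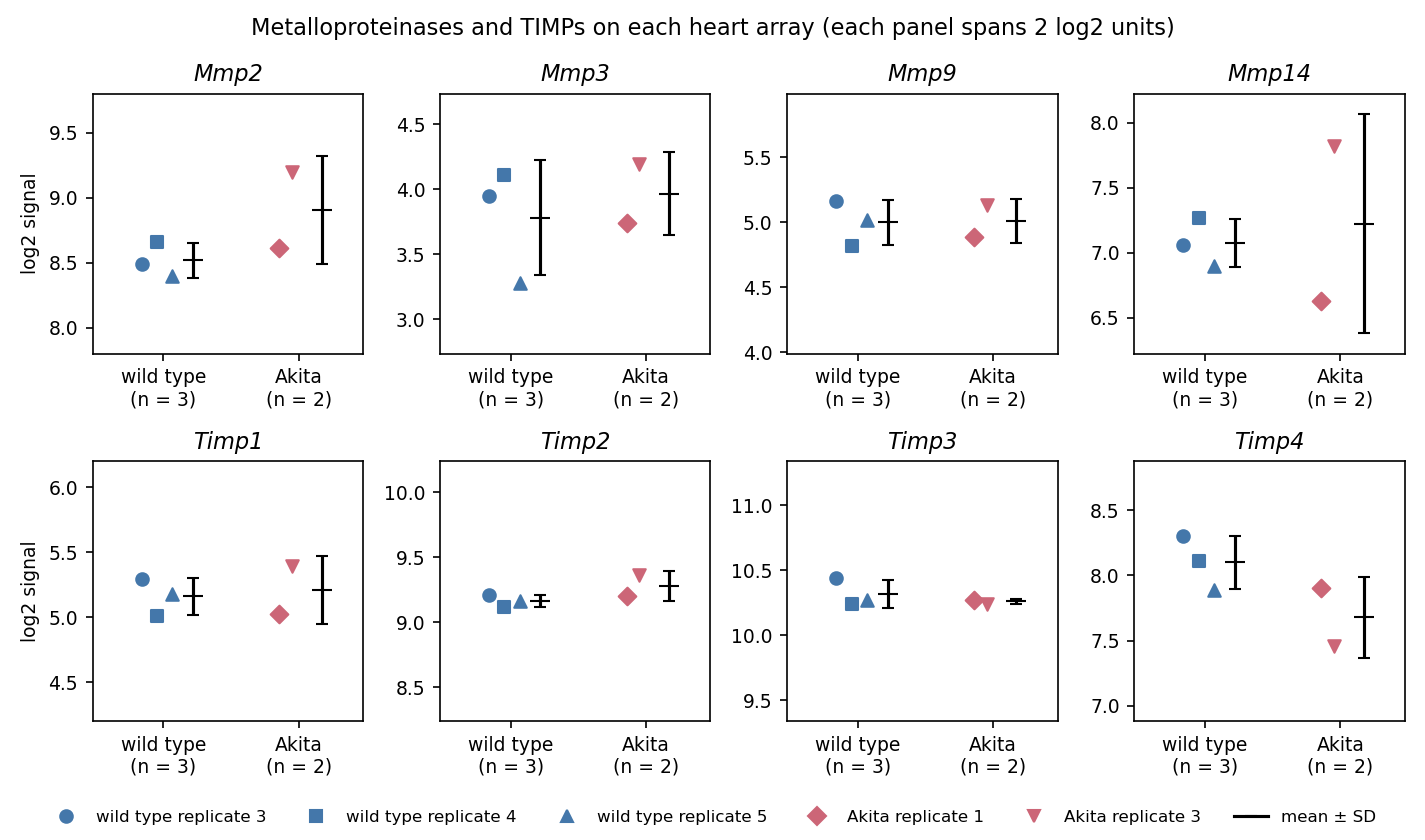
Log2 signal of the 4 proteases and 4 inhibitors on each array, 3 wild type (blue) and 2 Akita (red), with the group mean and SD beside the points. Every panel spans 2 log2 units, so heights of spread can be compared between genes. The Akita arrays lie 1.19 apart in Mmp14 and 0.03 apart in Timp3.

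Among the proteases, Mmp2, the gelatinase known to be made by cardiac fibroblasts, stood at 8.49, 8.66 and 8.40 in wild type replicates 3, 4 and 5 and at 8.61 and 9.20 in Akita replicates 1 and 3. Akita replicate 1 lay within the wild type range and replicate 3 above it. The means were 8.52 ± 0.13 (SD, n = 3) and 8.91 ± 0.42 (SD, n = 2), a log2 difference of 0.39 (SE 0.18, 1.31-fold) that did not pass the test (limma adjusted p = 0.414). The 95% interval of the difference, from the same fit and not adjusted for many genes, ran from -0.04 to 0.82, or from 0.97-fold to 1.77-fold. Without Akita replicate 3 the difference was 0.09 (limma adjusted p = 0.751), and without replicate 1 it was 0.68 (limma adjusted p = 0.210).

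Mmp14, the membrane enzyme that activates the MMP-2 precursor, stood at 7.06, 7.27 and 6.90 in wild type and at 6.63 and 7.82 in Akita replicates 1 and 3. The Akita arrays thus lay on opposite sides of the wild type range. The means of 7.08 ± 0.19 (SD, n = 3) and 7.23 ± 0.84 (SD, n = 2) differed by 0.15 (SE 0.31, limma adjusted p = 0.877), with a 95% interval from -0.59 to 0.88. The sign depended on the array, with -0.45 without Akita replicate 3 (limma adjusted p = 0.215) and 0.74 without Akita replicate 1.

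The 1.19 between the Akita arrays was over 3 times the wild type range of 0.37 in Mmp14. A gap of at least that size was found in 53 of the 15528 genes tested (0.341%), where the median gap was 0.19. The SD of Mmp14 within groups, 0.51, lay at percentile 99.3 of the genes tested. The gap in Mmp2 was 0.59, a size reached by 6.42% of genes, and its within-group SD of 0.26 lay at percentile 87.0. Both are descriptions of a single pair of arrays and carry no test.

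Mmp9, the gelatinase typical of neutrophils and macrophages, stood at 5.16, 4.82 and 5.02 in wild type and at 4.89 and 5.13 in Akita. Both Akita values fell within the wild type range. The difference of 0.01 (SE 0.14, limma adjusted p = 0.983) had a 95% interval from -0.32 to 0.34, which spans 0.80-fold to 1.27-fold. Its sign turned to -0.075 with arrays centred on their medians. Of 10 neutrophil markers, 7 lay under the dim filter, among them S100a8, S100a9 and Ly6g, and the list's summed log2 signal was 7.10 to 7.28 in wild type and 7.11 to 7.32 in Akita.

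Mmp3, a stromelysin that cuts proteoglycans and other proteases, was under the dim filter, at 3.95, 4.11 and 3.28 in wild type and at 3.74 and 4.19 in Akita. It was therefore left out of the test, and whether a change would show at so dim a signal was not tested. In the fit without the filter its difference was 0.19 (SE 0.25, limma adjusted p = 0.827). Wild type replicate 5 was the lowest of the 5 arrays, and without it the difference was -0.065; without Akita replicate 3 it was -0.04.

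Among the inhibitors, Timp4 stood at 8.30, 8.11 and 7.89 in wild type and at 7.90 and 7.46 in Akita replicates 1 and 3. The groups overlapped by 0.01, since Akita replicate 1 lay just above wild type replicate 5, and Akita replicate 3 was the lowest of the 5 arrays. The means were 8.10 ± 0.21 (SD, n = 3) and 7.68 ± 0.31 (SD, n = 2), a log2 difference of -0.42 (SE 0.18, 0.75-fold). This did not pass the test over all genes (limma adjusted p = 0.360). The 95% interval ran from -0.83 to -0.01. Without Akita replicate 3 the difference was -0.20 and without Akita replicate 1 it was -0.64.

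Timp3, an inhibitor that binds to the matrix and also blocks ADAM proteases, varied little. It stood at 10.44, 10.24 and 10.27 in wild type and at 10.27 and 10.24 in Akita, and both Akita values lay within the wild type range. The difference of -0.06 (SE 0.11, limma adjusted p = 0.863) had a 95% interval from -0.33 to 0.21, or from 0.80-fold to 1.15-fold. With arrays centred on the median of the genes tested it was 0.0325.

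Timp2, the inhibitor that also serves MMP-2 activation, stood at 9.21, 9.12 and 9.16 in wild type and at 9.20 and 9.36 in Akita. Akita replicate 3 alone lay outside the wild type range. The means of 9.16 ± 0.05 (SD, n = 3) and 9.28 ± 0.11 (SD, n = 2) differed by 0.12 (SE 0.11, limma adjusted p = 0.693), with a 95% interval from -0.14 to 0.38. The within-group SD of 0.075 was at percentile 15.4 of the genes tested, so Timp2 and Timp3 were the steadiest of the 7.

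Timp1, the inhibitor known to be induced by cytokines and injury, had a low signal that passed the dim filter. It stood at 5.29, 5.01 and 5.18 in wild type and at 5.02 and 5.39 in Akita. Akita replicate 3 was the highest array and replicate 1 lay within the wild type range. The difference was 0.045 (SE 0.15, limma adjusted p = 0.928), with a 95% interval from -0.31 to 0.40. Its sign turned without Akita replicate 3, to -0.14, and with arrays centred on their medians, to -0.04.

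**Figure D2:**
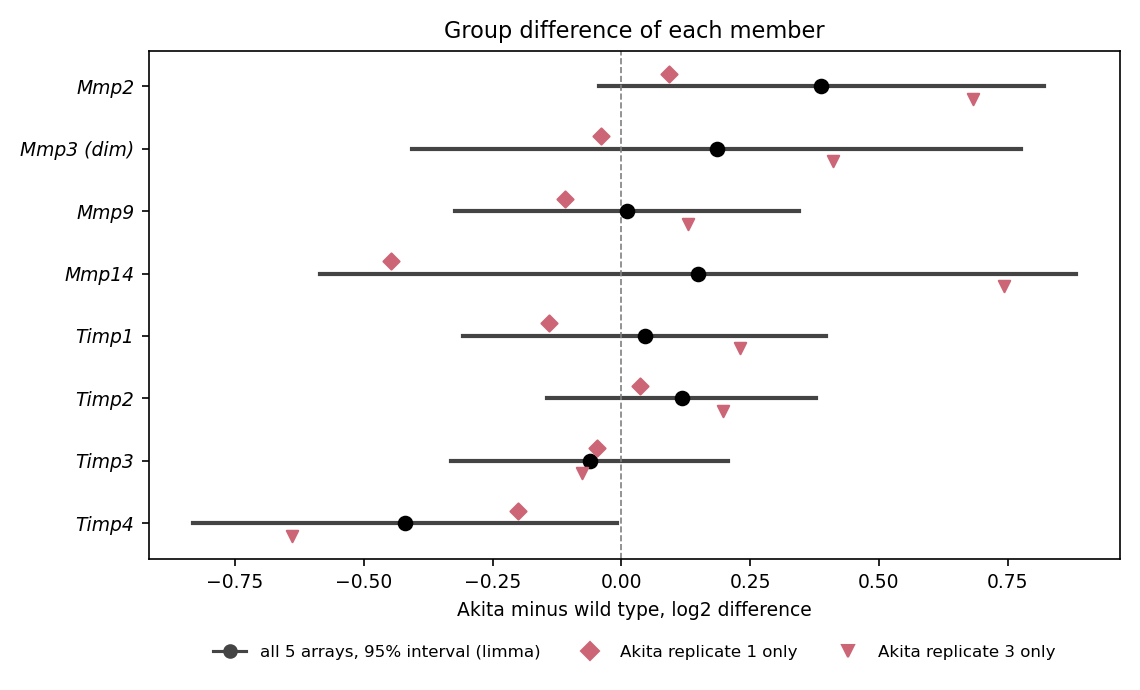
Akita minus wild type log2 difference of each gene (black point) with its 95% interval from limma (bar), and the difference when 1 Akita array is kept (red diamond, replicate 1; red triangle, replicate 3). The interval of Timp4 ends at -0.01, all others include 0, and in Mmp14 the 2 red symbols lie on opposite sides of 0, at -0.45 and 0.74. Mmp3 was under the dim filter.

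Protease and inhibitor signals were also set against each other within each array, which removes any scaling of whole arrays. The level of such a difference has no meaning, since probe sets differ in brightness, but its shift between arrays does. Mmp2 minus Timp4 was 0.19, 0.55 and 0.51 in wild type and 0.71 and 1.74 in Akita replicates 1 and 3, a shift of the mean by 0.81. This was the 1 pair of 16 in which the groups did not overlap, as 29.7% of single genes did not, and it joins the 2 genes of largest difference. Mmp2 minus Timp2 was -0.72, -0.46 and -0.76 in wild type and -0.59 and -0.16 in Akita, so replicate 1 lay within the wild type range. Mmp14 minus Timp2 was -2.15, -1.85 and -2.26 in wild type, lower in Akita replicate 1 (-2.57) and higher in replicate 3 (-1.54). Of the 16 pairs, 14 had a higher Akita mean, but pairs share genes and are not independent, and none was tested. The 14 include every pair with Mmp3, which was under the dim filter.

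Akita replicate 3 was the array in which most of these genes lay high. Of the 7 tested, 5 were above the wild type mean in it (median 0.20) and 2 were above in Akita replicate 1 (median -0.11). Over all genes tested, 47.0% were above in replicate 3 and 39.3% in replicate 1. Markers of cardiac fibroblasts, the main source of fibrillar collagen in the heart, lay above the wild type mean in 11 of 11 cases in Akita replicate 3 (median 0.46) and in 5 of 11 in replicate 1 (median 0.00). Their summed log2 signal was 13.14 to 13.24 in wild type, 13.23 in Akita replicate 1 and 13.53 in replicate 3. Epicardial and mesothelial markers had medians of 0.03 in replicate 1 and 0.72 in replicate 3, and 6 of 7 lay higher in the latter. Their part in the values of Mmp2 and Mmp14, and that of the atrial markers, was not tested. In tissue RNA, fewer cells of a type and less RNA per cell cannot be told apart.

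The order seen in Mmp14, with Akita replicate 1 under and replicate 3 over all wild type arrays, was found in 1117 of the genes tested (7.19%). Of the 11 fibroblast markers, 3 had it. They include Tcf21, a transcription factor of cardiac fibroblasts, at 6.62, 6.80 and 6.54 in wild type and 6.10 and 7.11 in Akita, and Ddr2, a collagen receptor, at 8.0, 8.03 and 8.01 and at 7.66 and 8.11. These 2 were picked after their values were seen. In 4 other markers of the 11 both Akita arrays lay above every wild type array. Groups did not overlap in 29.7% of all genes. Dcn, the brightest marker of the list, stood at 11.65, 11.53 and 11.53 in wild type and 11.64 and 11.85 in Akita.

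Timp4 went the other way from Mmp2 and Mmp14 in Akita replicate 3, where cardiomyocyte markers had a median of -0.12, against -0.10 in replicate 1. Their summed log2 signal was 15.41 to 15.46 in wild type and 15.37 in both Akita arrays. Endothelial markers had medians of 0.00 and 0.06 in Akita replicates 1 and 3. Smooth muscle and pericyte markers had -0.23 and 0.18, macrophage markers -0.295 and 0.07, and mast cell markers -0.11 and 0.03. White adipocyte markers had 0.33 and 0.53 over the 5 tested, while 2 others were under the dim filter. Of the 5, 4 lay higher in the Akita mean and 1, Slc36a2, lay lower (-0.60). Slc36a2 is not a marker particular to white fat. The list's summed log2 signal was 11.65 to 11.78 in wild type against 12.00 and 12.02 in Akita. That sum is dominated by Fabp4, at 11.52 to 11.67 in wild type and 11.91 in both Akita arrays. It therefore follows 1 gene and does not measure the amount of fat.

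**Figure D3:**
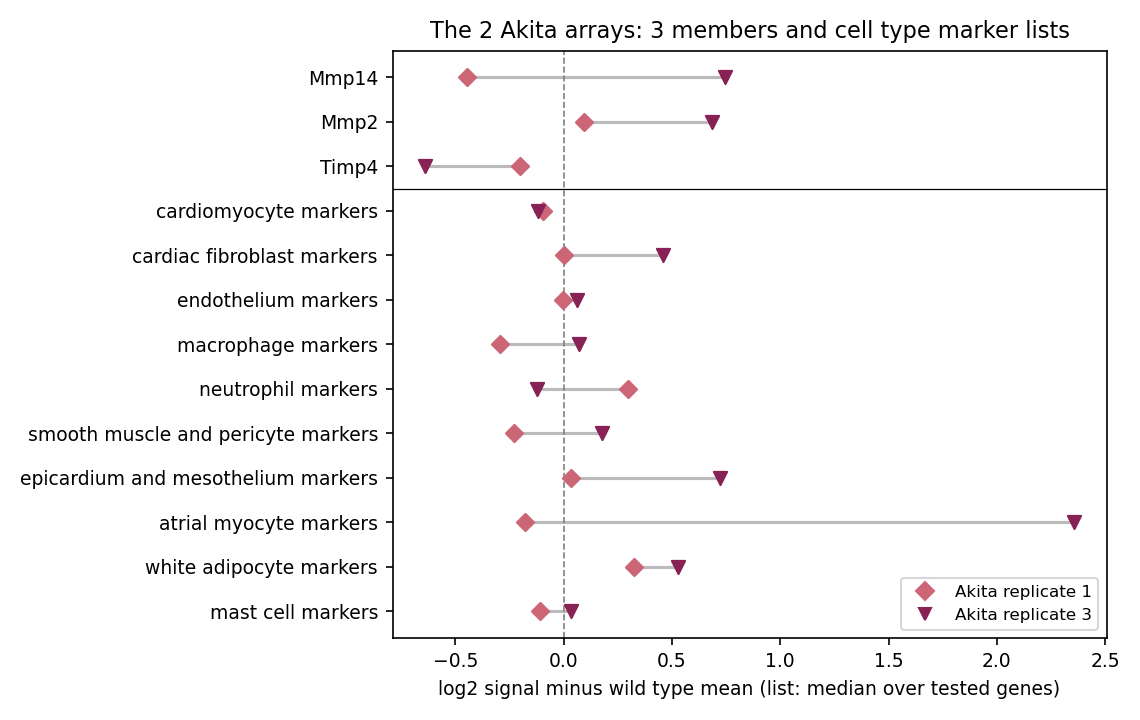
Signal of Mmp14, Mmp2 and Timp4 (top 3 rows) and medians of 10 cell type marker lists (below) in Akita replicate 1 (diamond) and replicate 3 (triangle), each relative to the mean of the wild type arrays (log2). Atrial markers lie at -0.18 and 2.36 and fibroblast markers at 0.00 and 0.46, while cardiomyocyte markers lie at -0.10 and -0.12.

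Of the 18 other metalloproteinases on the array, 8 were dim. The other 10 passed the dim filter, 7 higher and 3 lower in Akita, and 0 passed the test at an adjusted p or at an unadjusted p under 0.05 by limma. Over all genes tested, 43.5% lay higher, 13.6% had an unadjusted p under 0.05 by limma and 29.7% had groups that did not overlap. These shares are the background for the counts in this and the following lists. The list median was 0.11, against -0.03 over all genes tested. It was 0.02 with arrays centred on their medians, 0.20 with arrays centred on the median of the genes tested and 0.03 without Akita replicate 1. Mmp19, an enzyme that cuts basement membrane proteins, stood at 5.37, 5.39 and 5.32 in wild type and 5.59 and 5.61 in Akita (log2 difference 0.24, SE 0.10, limma adjusted p = 0.374). Here both Akita arrays lay above all wild type arrays, and by nearly the same amount. Such a lack of overlap was found in 3 of the 10. Mmp16, another membrane enzyme, differed by 0.24 (0.10 without Akita replicate 3), Mmp25 by 0.13 and Mmp11, stromelysin-3, by -0.16, with adjusted p of 0.460, 0.690 and 0.565 by limma.

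ADAM and ADAMTS proteases, relatives that shed cell surface proteins and cut proteoglycans, were nearly balanced. Of 25 tested, 12 lay higher and 13 lower (median -0.05), and 0 passed at an adjusted p by limma. At an unadjusted p under 0.05, 1 lay higher and 3 lower, against 4.13% and 9.49% of all genes. The list median turned to 0.0475 with arrays centred on the median of the genes tested. Adamts4, an aggrecanase, stood at 4.25, 4.20 and 4.36 in wild type and 4.72 and 4.59 in Akita (log2 difference 0.39, SE 0.11, limma adjusted p = 0.235). Adam8 (-0.38), Adam22 (-0.32) and Adamts7 (-0.28) lay lower in both Akita arrays than in any wild type array, with limma adjusted p of 0.316, 0.326 and 0.347. These genes were named for their small p. The groups did not overlap in 6 of the 25, against 29.7% of all genes.

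The plasminogen system, whose product plasmin can activate metalloproteinase precursors, had 8 tested genes, 5 higher and 3 lower (median 0.075, but -0.01 with arrays centred on their medians), and 0 passed the adjusted test by limma. In 2 of the 8 the groups did not overlap, against 29.7% of all genes. Plat, tissue plasminogen activator, was the 1 gene at an unadjusted p under 0.05. It stood at 7.62, 7.63 and 7.59 in wild type and 7.77 and 8.09 in Akita, above every wild type array in both (log2 difference 0.32, SE 0.13, limma adjusted p = 0.346). Plg, plasminogen itself, had a signal just above the dim filter and differed by 0.24 (-0.01 without Akita replicate 1). S100a10, a cell surface partner of plasminogen, differed by 0.14 (0.05 without Akita replicate 3), while Plgrkt, a plasminogen receptor, differed by -0.12.

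Of 16 tested genes for activating proteases and other inhibitors, 10 lay higher and 6 lower (median 0.08, but -0.0017 with arrays centred on their medians). By limma 0 passed at an adjusted p and 1 at an unadjusted p under 0.05, Spock2, a testican proteoglycan, at 5.94, 6.18 and 6.16 in wild type and 6.32 and 6.62 in Akita (log2 difference 0.38, SE 0.14, adjusted p = 0.314). Furin, the convertase that cuts the MMP14 precursor, differed by -0.15 and its relative Pcsk5 by 0.20 (0.07 without Akita replicate 3). A2m, which encodes alpha-2-macroglobulin, a general protease trap, differed by 0.24. Their limma adjusted p were 0.593, 0.531 and 0.474.

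Matrix proteins that these enzymes cut lay higher in 29 of 32 cases in the Akita mean, against 43.5% of all genes tested. The list median was 0.14, or 0.06 with arrays centred on their medians. By limma 0 passed the adjusted test and 2 had an unadjusted p under 0.05, against 13.6% of all genes. The median was 0.29 in Akita replicate 3, where 30 of 32 were above the wild type mean, and -0.03 in replicate 1, where 12 were. Lum, the collagen-binding proteoglycan lumican, stood at 8.31, 8.24 and 8.28 in wild type and 8.61 and 9.10 in Akita, and Col6a1, a chain of collagen VI, at 8.23, 8.35 and 8.46 and at 8.65 and 8.98. Both lay above every wild type array in both Akita hearts, with differences of 0.58 and 0.47 (limma adjusted p = 0.209 and 0.239). Over the list, 4 of 32 had groups that did not overlap, against 29.7% of all genes. Nid2, a basement membrane linker, differed by 0.26 (0.08 without Akita replicate 3) and the laminin chain gene Lama5 by -0.27. Several of these genes, Lum among them, also served as fibroblast markers.

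Other proteases that act on matrix, mainly lysosomal, were balanced, with 7 of 13 higher and 6 lower (median 0.0033, but -0.08 with arrays centred on their medians), 0 past the adjusted test by limma and 1 at an unadjusted p under 0.05. That was Ctsd, the lysosomal cathepsin D, at 11.77, 11.79 and 11.76 in wild type and 11.54 and 11.45 in Akita (log2 difference -0.28, SE 0.11, limma adjusted p = 0.318). Bmp1, a procollagen processing enzyme, differed by -0.285, its relative Tll1 by 0.32 and Dpp4, a membrane peptidase, by 0.425, with limma adjusted p of 0.439, 0.436 and 0.465. Without Akita replicate 3 the differences of Tll1 and Dpp4 were 0.10 and 0.03, and without Akita replicate 1 that of Bmp1 was -0.12.

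Of 21 tested transcription factors and ligands known to regulate metalloproteinases, 9 lay higher and 12 lower (median -0.04), and 1 of 21 passed the adjusted test by limma, higher in Akita, where 0.213% of all genes did in that direction. With arrays centred on the median of the genes tested the list median turned to 0.0558, and to 0.0105 with quantile normalization again. The gene that passed was Ccn2, a matrix-associated protein induced by TGF-beta. It stood at 7.84, 7.85 and 7.70 in wild type and at 8.69 and 8.86 in Akita. The log2 difference was 0.98 (SE 0.12, limma adjusted p = 0.0285). Here, unlike in the 7 tested metalloproteinases and TIMPs, both Akita arrays stood above every wild type array and close to each other. Jund and Fosl2, which encode AP-1 subunits, and Rela, of NF-kappa-B, lay lower in both Akita arrays than in any wild type array, with differences of -0.27, -0.31 and -0.33. The AP-1 genes Fos, Jun, Junb and Fosb, at 0.135, -0.075, -0.23 and -0.04, overlapped between the groups. Jund, Fosl2 and Rela did not pass the adjusted test (limma adjusted p = 0.349, 0.356 and 0.285). Over the list, 4 of 21 had groups that did not overlap, against 29.7% of all genes. The groups overlapped in Mmp3 and Timp1, whose promoter windows hold AP-1 letters, and in every other member measured. A link between AP-1 and these genes was not tested.

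**Figure D4:**
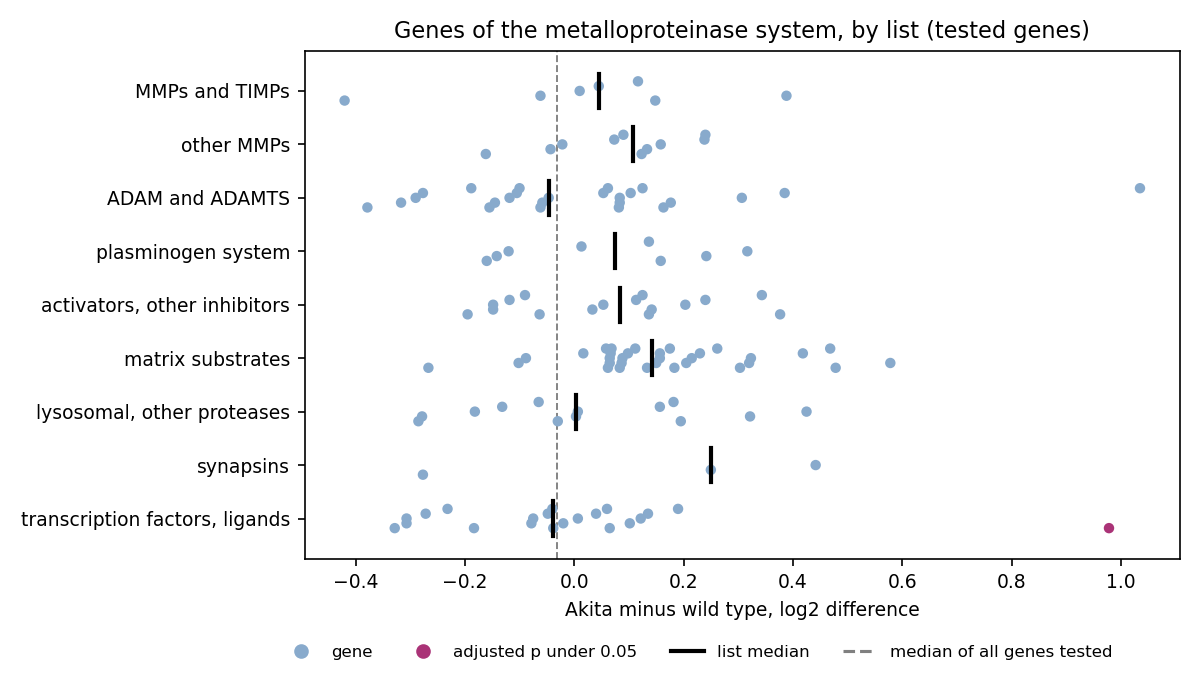
Akita minus wild type log2 difference of each tested gene in the 9 lists of the metalloproteinase system (points), with list medians (black bars) and the median of all genes tested, -0.03 (dashed line). Ccn2, at 0.98, is the point past an adjusted p of 0.05. Medians run from -0.05 for ADAM and ADAMTS proteases to 0.25 for the 3 synapsin genes, whose median was -0.01 without Akita replicate 3.

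In the RefSeq table, Timp1, Timp4 and Timp3 lie inside the spans of the synapsin genes Syn1, Syn2 and Syn3, which encode proteins of nerve terminals. Timp1 and Timp4 are read from the strand opposite to their host. The hosts were followed for this reason, and 0 of the 3 passed the adjusted test by limma, with 1 at an unadjusted p under 0.05. In 2 of the 3 the groups did not overlap, against 29.7% of all genes. Syn1 stood at 5.31, 5.06 and 5.39 in wild type and 5.84 and 5.55 in Akita (log2 difference 0.44, SE 0.15, limma adjusted p = 0.285), both above all wild type arrays, while Timp1 inside it differed by 0.045. Syn2 differed by 0.25 (-0.01 without Akita replicate 3) where Timp4 differed by -0.42, and Syn3 by -0.28 where Timp3 differed by -0.06 (limma adjusted p = 0.565 and 0.467 for the hosts).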

How the data were processed

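The authors deposited a log2 signal for every probe set, made with Affymetrix Expression Console per the submitters' processing notes. The base was read from the range of the values, and how probes were summarised and arrays normalized is not given in the sources used here. Of 41345 probe sets, 23521 carried 1 gene symbol, 1814 several and 16010 none. Each of 22180 genes was represented by its brightest probe set. A filter at percentile 30 of mean signal (log2 4.06) removed dim genes and left 15528. Akita minus wild type was fitted over all 5 arrays with limma 3.58.1 (R 4.3.3; lmFit and eBayes, two-sided) without covariates, with Benjamini-Hochberg adjustment over the genes tested at 0.05. The method was tested on simulated data. With 3 and 2 arrays the smallest two-sided p of an exact permutation test is 0.2. No batch is named in the labels. The 9 genes and the lists were chosen with earlier results of these data known, and so no p was adjusted over a list alone. Genes named were the 9, up to 4 of smallest p per list and the brightest markers. Others were chosen after their values were seen: Bmp10, Myl7, Tcf21, Ddr2, Fos, Jun, Junb, Fosb, S100a8, S100a9, Ly6g, Adipoq, Lep, Adamts8 and Mmp12. The alternatives were other dim filters, averaged probe sets, quantile normalization again, centred arrays, other variance models, a threshold of 0.1 and each array left out. Centring on the genes tested was added after seeing the data. Figures were drawn with matplotlib 3.10.9.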

Additional observations from a re-analysis of the deposited data

How the results depend on the processing

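No metalloproteinase or TIMP passed the adjusted test under any of the 15 alternatives run, while 0 to 3 had an unadjusted p under 0.05. The 3 were counted without Akita replicate 1. Which member lay under it depended on the setting. In the main fit it was Timp4. With quantile normalization again it was Mmp2 (limma unadjusted p = 0.0239), while Timp4 had 0.122. Over all genes, 51 passed in the main fit (33 higher, 18 lower). The count was 86 (68 higher, 18 lower) with no dim filter, 48 (20 higher, 28 lower) with a filter at the 50th percentile, 32 with quantile normalization again, 197 (60 higher, 137 lower) with an intensity trend and robust prior, 28 with array weights and 96 (49 higher, 47 lower) at a threshold of 0.1. It was 84 (41 higher, 43 lower) with arrays centred on their medians and 30 (25 higher, 5 lower) with arrays centred on the median of the genes tested. An unmoderated linear model gave 0, with 1726 genes at an unadjusted p under 0.05 against 2116 by limma. Leaving out 1 array gave 9 (without wild type replicate 3) to 44 (without Akita replicate 1) calls. With 1 Akita array left, it was assumed to vary like the wild type arrays.

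Signs held for Mmp2, Timp2 and Timp4 in all alternatives run. Mmp9 and Timp1 turned to -0.0557 and -0.0185 with quantile normalization again and to -0.075 and -0.04 with arrays centred on their medians. Timp3 turned to 0.0325 with arrays centred on the median of the genes tested. With 1 array left out, Mmp14 ran from -0.45 to 0.74, Mmp9 from -0.11 to 0.13, Timp1 from -0.14 to 0.23 and Mmp3 from -0.065 to 0.41. Of the list medians, 41 of 197 values under alternatives moved by more than the SD between arrays. No other probe set of a member could be tried, since each has 1. No paired analysis was run because the labels name no pairing.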

Other observations

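Adamts8, a protease gene outside the naming rule and picked for its size, stood at 4.41, 3.97 and 4.61 in wild type and at 4.52 and 6.21 in Akita replicates 1 and 3. It had the largest difference of the 25 ADAM and ADAMTS genes tested, 1.035 (limma adjusted p = 0.367; 0.19 without Akita replicate 3), and Akita replicate 1 lay within the wild type range. Mmp12, the macrophage elastase, was under the dim filter, at 3.48, 3.28 and 3.46 in wild type and at 4.0 and 3.67 in Akita. In the fit without that filter it differed by 0.43 (SE 0.14, limma adjusted p = 0.316). Of the 10 macrophage markers, 6 lay lower in the Akita mean and Mrc1 had a difference of 0.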
